A study of Mus musculus with 9 samples.

Results

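NF-kB subunits and their inhibitors were followed across macrophage lines grown from mouse yolk sac (YS), fetal liver (FL) and bone marrow (BM). The genes were chosen by symbol: the 5 subunits Nfkb1, Nfkb2, Rela, Relb and Rel, the inhibitors Nfkbia, Nfkbib and Nfkbie, the IkB-like gene Nfkbiz, and Tnfaip3. They are 10 of the 24411 genes in the deposited table, and all 10 passed the filter on low values that left 11753 genes for testing. The study grew these lines to ask how far macrophages of different origins keep their own features in culture. There were 3 YS lines, 3 FL lines and 3 BM lines, with 1 RNA-seq library per line. YS lines came from yolk sac at E9.5, FL lines from fetal liver at E14.5 and BM lines from adult bone marrow, all of C57BL/6 mice with no genetic change. Every line was kept in RPMI medium with fetal calf serum and recombinant human M-CSF, the growth factor on which the cells depend, and the labels name no stimulus. A line was a bulk culture from its own dish or well, started from cells pooled from several mice, and grew out of colonies that appeared during repeated passage; in BM and FL cultures, but not necessarily in YS cultures, most adherent cells had by then stopped growing. Since the lines of a group are not stated to come from separate mice, p-values measure the spread between lines, which may be partly technical.

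NF-kB is a family of dimeric transcription factors that drives genes of inflammation and cell survival, and macrophages use it to answer microbial products and cytokines. In resting cells, IkB proteins hold the dimers in the cytoplasm. A kinase complex marks IkB for destruction when a receptor is engaged, and the freed dimers enter the nucleus. A slower, alternative branch acts through processing of the Nfkb2 product and dimers that hold RelB. Several inhibitors are themselves NF-kB target genes, so the system feeds back on itself.

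NF-kB dimers bind kappa-B motifs in the DNA of their target genes, so short promoter stretches of the genes that held such letters are shown here. RefSeq promoter windows on GRCm38.p6, each from 250 bases before to 50 bases after a start site, were found for 7 of the 10 genes (Nfkb2, Rela, Rel, Nfkbia, Nfkbib, Nfkbie and Tnfaip3). They were searched on both strands for a kappa-B-like motif, GGGA, then any 2 bases, then TTCC. It stood in 482 (1.47%) of all 32851 windows, and in windows of Nfkb2 and Nfkbia. A form with 1 base in the middle in place of 2, added after the data had been seen, stood in 551 windows (1.68%), among them windows of Nfkb2, Rel and Tnfaip3. Each stretch is given 5′ to 3′ on the strand of its gene, with the match in capitals; a match on the opposite strand appears as its reverse complement.
Nfkb2, chr19:46305695-46305724, plus strand: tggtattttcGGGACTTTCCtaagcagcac
Nfkb2, chr19:46305449-46305478, plus strand: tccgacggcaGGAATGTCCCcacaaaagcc
Nfkb2, 1 base in the middle, chr19:46304688-46304716, plus strand: ggatcgtcacGGGAATTCCccccctcggg
Nfkbia, chr12:55492657-55492686, minus strand: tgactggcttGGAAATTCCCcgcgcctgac
Rel, 1 base in the middle, chr11:23771042-23771070, minus strand: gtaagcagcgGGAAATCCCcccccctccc
Tnfaip3, 1 base in the middle, chr10:19015404-19015432, minus strand: aatttccatcGGAAATCCCcctgttggca
Neither form was found in the windows of Rela, Nfkbib and Nfkbie. A match describes letters in the reference and does not show that a factor binds there.

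Values are TPM, a unit that takes transcript length and the library total into account, so levels of different genes can be set side by side. TPM keeps no read number, so the depth of the libraries is unknown. All 10 macrophage markers were above 0 in every line, the lowest value being 1.68 TPM, while S100a9, Elane, Ngp, Cd3e, Cd3d, Cd3g and Flt3, markers of granulocytes, T cells and dendritic cells, were listed at 0 throughout. Other markers on those lists were present: the granulocyte marker S100a8 was highest in the FL lines, at 10.5, 25.1 and 24.2 TPM, with 5.00 TPM or less elsewhere, the dendritic cell marker Zbtb46 at 2.23 to 7.09 TPM, and the T cell marker Lck at 0.52 to 4.65 TPM. Whether S100a8 has a part in the FL results was not tested. Fcgr1 and Aif1 were lower in BM lines than in all others, and the summed level of 4 endothelial markers, mainly Kdr and Tie1, was 21.9 to 55.8 TPM for YS, 18.8 to 51.7 for FL and 0.17 to 2.64 for BM lines. The endothelial sum was thus lowest in BM lines, opposite to the NF-kB genes that were highest there. No single one of these markers kept that order in every line. Kdr was at 0.29 TPM in YS line 1 and 0.86 TPM in BM line 2, and Cdh5 at 0.14 and 0.28 TPM in the same lines. Tie1 was at 0.00 TPM in YS line 3, FL line 2 and FL line 3, below all BM lines. The part of the endothelial markers in the NF-kB results was not tested. In a bulk sample, fewer cells of a type and less RNA per cell cannot be told apart. BM line 2 held some transcripts that the other BM lines nearly lacked, and its summed erythroid markers reached 330 TPM. A set of 45 genes reached 20 TPM in YS line 2 but stayed under 0.5 TPM in both other BM lines. BM line 2 had 14.1% of the YS line 2 level at their median. This choice of genes favours a higher value in BM line 2, and no such count was made for another line. Over all tested genes, Pearson's r of log2(TPM + 1) was 0.975 to 0.985 between BM lines, 0.912 to 0.96 between YS lines and 0.947 to 0.963 between FL lines. Results are also given without BM line 2.

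Most of these NF-kB genes were at their highest in BM lines. In 6 of the 10 (Nfkb2, Rela, Relb, Nfkbia, Nfkbie and Tnfaip3), all 3 BM lines lay above all 6 YS and FL lines, a pattern seen in 10.9% of tested genes. Without BM line 2, Rel joined these 6, and 13.6% of tested genes had the order; leaving out a line cannot remove a gene from it. Nfkbib and Nfkbiz had all YS lines above all others, which held for 7.88% of tested genes. Nfkb2 and Rela had all FL lines below all others, which held for 4.17%. Nfkb1 and Rel had none of these orders.

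**Figure D1:**
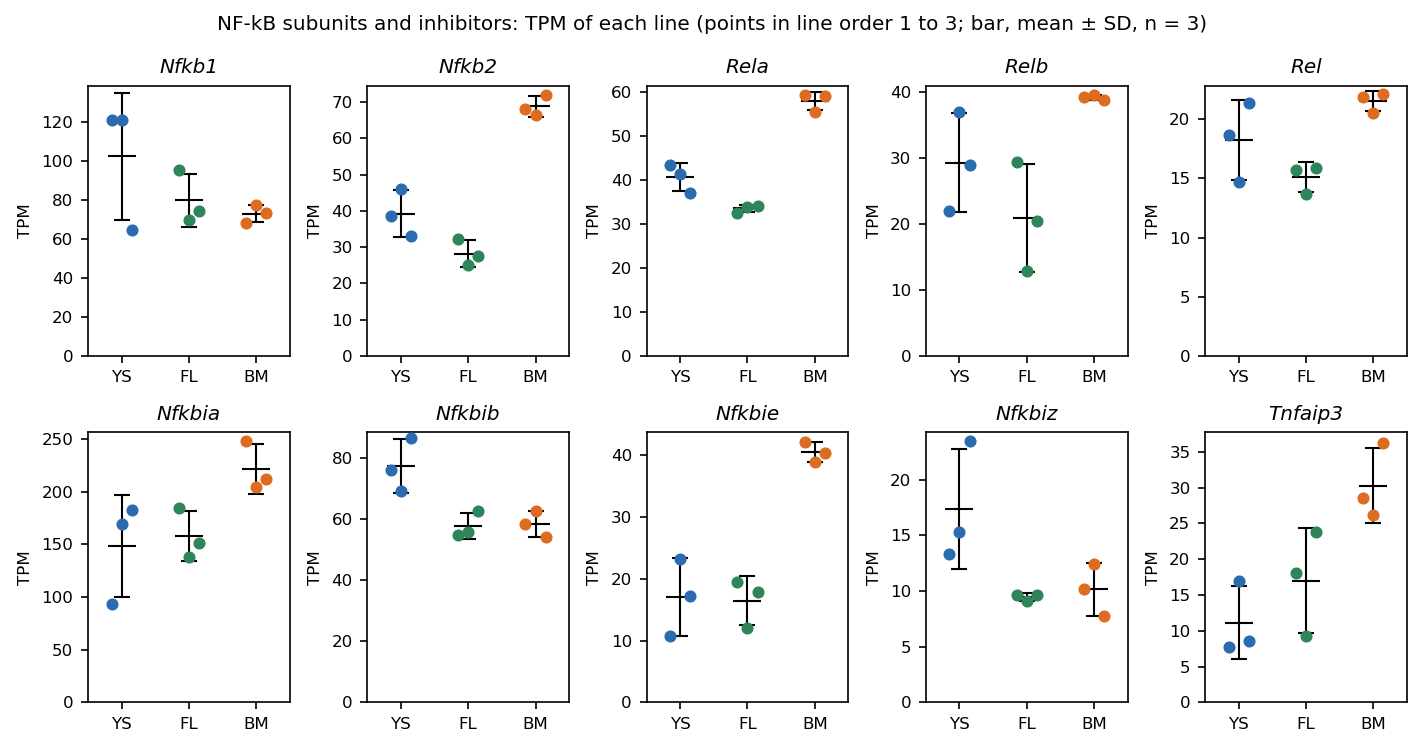
TPM (linear axis from 0) of the 10 NF-kB genes in each YS, FL and BM line, with points in line order and the bar giving mean ± SD of 3 lines. BM lines sit above all others for Nfkb2, Rela, Relb, Nfkbia, Nfkbie and Tnfaip3, YS lines sit above all others for Nfkbib and Nfkbiz, and YS line 3 lies apart from the other YS lines for Nfkb1.

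Among the subunits, Nfkb2, which encodes p100, the precursor of p52, showed the widest step between BM lines and the others. Its level was 38.7, 45.9 and 33.1 TPM for YS, in line order 1 to 3, 32.2, 24.9 and 27.4 for FL and 68.2, 66.3 and 72.0 for BM lines. The 3 groups did not overlap, with FL lines lowest. On the log2(TPM + 1) scale, which understates changes of low genes, YS lines were lower than BM lines by -0.81 ± 0.14 (SE, adjusted p = 0.0063, limma) and FL lines by -1.27 ± 0.14 (adjusted p = 0.0011). The FL difference was 2.4-fold and the YS difference 1.75-fold.

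Rela encodes p65, the subunit that carries the activating domain of the classical dimer. It stood at 43.5, 41.4 and 37.1 TPM for YS, 32.6, 33.9 and 34.1 for FL and 59.2, 55.5 and 59.0 for BM lines. The order of the groups was that of Nfkb2, again with no overlap, but the steps were smaller. YS lines differed from BM lines by -0.50 ± 0.10 (SE, adjusted p = 0.0087, limma) and FL lines by -0.77 ± 0.10 (adjusted p = 0.0016), both under 2-fold (1.42-fold and 1.71-fold).

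Relb, the partner of p52 in the alternative branch, was even in BM lines and scattered in the others. It measured 39.2, 39.5 and 38.8 TPM for BM, 22.0, 37.0 and 28.9 for YS and 29.4, 12.9 and 20.4 for FL lines. The BM lines lay above the rest, with YS line 2 close under them. FL lines were lower than BM lines by -0.95 ± 0.28 (SE, adjusted p = 0.045, limma), while the YS difference of -0.44 ± 0.28 did not pass (adjusted p = 0.26). The FL difference did not pass once any 1 of the BM lines was left out, with an adjusted p of 0.11 without BM line 2.

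Rel, which encodes c-Rel, had the lowest mean of the 5 subunits in each group. It read 18.7, 14.7 and 21.4 TPM for YS, 15.8, 13.7 and 15.9 for FL and 21.9, 20.6 and 22.2 for BM lines. FL lines lay below BM lines by -0.49 ± 0.15 (SE, adjusted p = 0.053, limma). This too was lost without any 1 of the BM lines (adjusted p = 0.11 without BM line 2), and also without FL line 2. YS and BM lines overlapped, and their difference of -0.24 had a 95% interval from -0.59 to 0.10.

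Nfkb1, which encodes p105, the precursor of p50, had the highest level of the 5 subunits in all 9 lines, though by a narrow margin over Nfkb2 in BM lines 1 and 3, and was the subunit whose mean was lowest in BM lines. Its level was 121, 121 and 64.6 TPM for YS, 95.3, 69.7 and 74.1 for FL and 68.2, 77.4 and 73.3 for BM lines. YS lines 1 and 2 exceeded every other line, whereas YS line 3 was the lowest of all 9. No comparison passed the test, and the difference between YS and BM lines was 0.43 (95% interval -0.12 to 0.97, adjusted p = 0.21, limma). YS line 3 decided this result, since without it the difference was 0.72 with an adjusted p of 0.013.

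Among the inhibitors, Nfkbie, which encodes IkB epsilon, set BM lines apart from both embryonic groups. It measured 42.1, 38.9 and 40.4 TPM in BM lines, against 10.7, 23.2 and 17.3 TPM in YS lines and 19.4, 12.0 and 17.9 TPM in FL lines. No YS or FL line came near the BM lines, while YS and FL lines overlapped (difference 0.01, 95% interval -0.59 to 0.62). The fall was -1.26 ± 0.27 in YS lines (SE, adjusted p = 0.011, limma) and -1.27 ± 0.27 in FL lines (adjusted p = 0.012), or 2.4-fold and 2.42-fold. Without YS line 1, the YS difference was -0.98 (adjusted p = 0.015) and no longer exceeded 2-fold.

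Tnfaip3 encodes A20, a ubiquitin-editing enzyme that shuts off signalling above the kinase complex. It was scattered within the YS and FL groups, with 7.70, 17.0 and 8.63 TPM for YS, 18.0, 9.22 and 23.8 for FL and 28.5, 26.1 and 36.2 for BM lines. All BM lines were above the rest. YS lines were lower than BM lines by -1.44 ± 0.37 (SE, 2.7-fold, adjusted p = 0.022, limma). The FL difference of -0.88 ± 0.37 did not pass (adjusted p = 0.13), and it depended on single FL lines: it was -1.15 (adjusted p = 0.085) without FL line 3 and -0.51 (adjusted p = 0.33) without FL line 2.

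Nfkbia, which encodes IkB alpha, the main fast inhibitor and a classical NF-kB target, was the most abundant of the 10 genes in 8 of the 9 lines. It stood at 93.3, 169 and 183 TPM for YS, 184, 138 and 151 for FL and 248, 204 and 212 for BM lines. YS line 1 was the lowest line. YS lines differed from BM lines by -0.63 ± 0.24 (SE, adjusted p = 0.085, limma), and this no longer passed without any 1 of the BM lines (adjusted p = 0.13 without BM line 2) or without YS line 1, where the difference was -0.33. It was also lost without FL line 3 (adjusted p = 0.11, limma) and with no filter on low values (0.12). The same held with only the 2 groups fitted (0.12) and with a block for the replicate number (0.13). The FL difference was -0.49 (95% interval -1.04 to 0.06, adjusted p = 0.2).

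Nfkbib and Nfkbiz ran the other way. Nfkbib, which encodes IkB beta, was at 76.2, 69.3 and 86.7 TPM for YS, 54.7, 55.9 and 62.8 for FL and 58.5, 62.6 and 54.2 for BM lines. YS lines were higher than BM lines by 0.40 ± 0.12 (SE, adjusted p = 0.037, limma) and higher than FL lines by 0.41 ± 0.12 (adjusted p = 0.077). The difference from BM lines no longer passed with quantile (adjusted p = 0.14) or median-of-ratios scaling (adjusted p = 0.12). It was also lost without BM line 1 (adjusted p = 0.11) or BM line 3 (adjusted p = 0.14). FL and BM lines overlapped, with a difference of -0.02 (95% interval -0.28 to 0.25).

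Nfkbiz encodes IkB zeta, a nuclear protein that helps NF-kB switch on a set of secondary genes and so is not an inhibitor in the plain sense. It read 13.4, 15.3 and 23.5 TPM for YS, 9.69, 9.11 and 9.63 for FL and 10.2, 12.5 and 7.78 for BM lines. YS lines were higher than BM lines by 0.70 ± 0.23 (SE, adjusted p = 0.049, limma) and higher than FL lines by 0.77 ± 0.23 (adjusted p = 0.083). The difference from BM lines did not pass without BM line 1 (adjusted p = 0.12) or BM line 3 (adjusted p = 0.17). YS line 3 was the highest line, and YS line 1 was close to BM line 2. With 3 lines against 3, an exact two-sided permutation test cannot go below 0.1, and it gave 0.1 for each pair of non-overlapping groups named above.

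**Figure D2:**
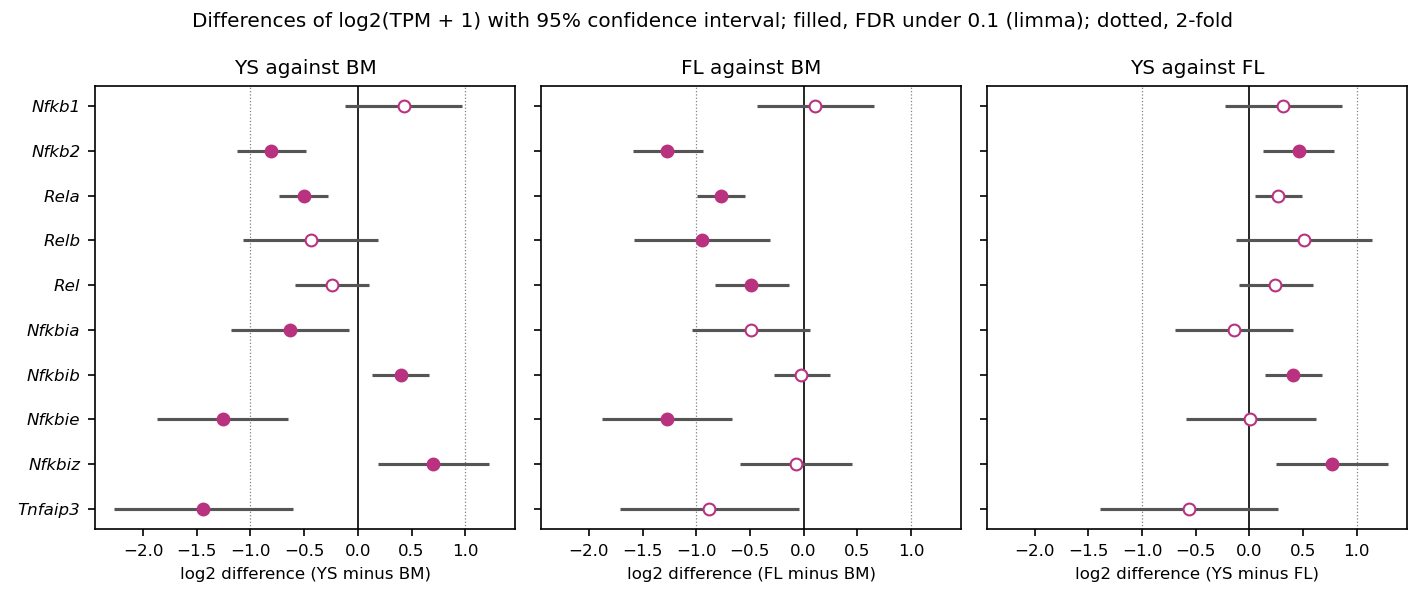
Differences of log2(TPM + 1) between groups for the 10 NF-kB genes, with 95% confidence intervals from limma; filled points passed a false discovery rate of 0.1 and dotted lines mark 2-fold. Nfkbie is near -1.26 against BM lines in both panels on the left, and in the panel of YS against FL lines the filled points, Nfkb2, Nfkbib and Nfkbiz, lie between 0.41 and 0.77.

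Genes were called, with the study's thresholds, at a false discovery rate (FDR) under 0.1 and more than 2-fold. Between YS and BM lines, 2 of the 10 were called, Nfkbie and Tnfaip3, both lower in YS lines, beside 12.8% of tested genes. At an FDR under 0.1 of any size, 7 passed, against 37.9% of tested genes, and 5 of them were lower in YS lines, against 14.4%. The count of 7 fell to 4 (Nfkb2, Rela, Nfkbie and Tnfaip3) without BM line 1 or without BM line 3, and was 6 without BM line 2. The median difference of the 10 genes was -0.47, and that of all tested genes 0.11.

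Between FL and BM lines, the 2 called genes were Nfkb2 and Nfkbie, both lower in FL lines, beside 10.3% of tested genes. At an FDR under 0.1, 5 passed, against 27.6% of tested genes, and all 5 were lower in FL lines, against 10.6%. The count was 3 (Nfkb2, Rela and Nfkbie) when any 1 of the BM lines was left out. The median of the 10 was -0.63, and that of all tested genes 0.09. YS and FL lines were set against the same BM lines, so the likeness of these comparisons is not independent evidence. Without BM line 2, the called genes were the same 2 in each comparison.

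Between YS and FL lines, 0 of the 10 were called by limma, beside 3.79% of tested genes. An unadjusted limma p under 0.05 was reached by 4 of the 10 and by 3016 of all 11753 tested genes. Nfkb2 (0.46 ± 0.14, adjusted p = 0.096, limma), Nfkbib and Nfkbiz passed at an FDR under 0.1, all higher in YS lines, against 12.8% of tested genes. This count of 3 was the least firm of all, and was 0 when FL line 2, FL line 3 or any 1 of the BM lines was left out, when the fit had a block for the replicate number, and when YS and FL lines alone were fitted.

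Position in the genome bears on how these values are read. Rela and Nfkb2 both lie on chromosome 19, where 404 genes were tested and the median difference was -0.52 between YS and BM lines and -0.79 between FL and BM lines. Rela stood at the middle of its chromosome, with 51.5% of those genes lower in the YS comparison and 51.7% in the FL comparison. Nfkb2 was further down, with 27.5% and 15.1% of chromosome 19 genes lower. BM lines were above all others in 60.1% of tested genes on chromosome 19 and in 9.17% of the remaining 11349 genes, among which 4 of 8 NF-kB genes had this order. FL lines were below all others in 28.2% of chromosome 19 genes and 3.31% of the rest. What lowers or raises chromosome 19 as a whole was not tested.

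The other NF-kB genes that were highest in BM lines lay toward the low end of their own chromosomes. They had been named for that order in these same data, which fixes their differences below 0. Their low places are thus a description and not a separate result. Nfkbie lay on chromosome 17, whose median was -0.02 in the YS comparison and 0.08 in the FL comparison, with 5.03% and 4.36% of its tested genes lower than Nfkbie. Tnfaip3 on chromosome 10 had 3.43% and 5.9% of genes lower, Nfkbia on chromosome 12 had 7.53% and 8.57%, and Relb on chromosome 7 had 11.3% and 3.5%. Relb and Nfkbib share chromosome 7, where the median was 0.20 between YS and BM lines, yet Relb differed by -0.44 and Nfkbib by 0.40. Chromosome 16, which holds Nfkbiz, had a median of 0.28 between YS and BM lines and 0.44 between FL and BM lines. Nfkbiz was above 80.8% of its chromosome in the YS comparison and above 14.8% in the FL comparison.

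**Figure D3:**
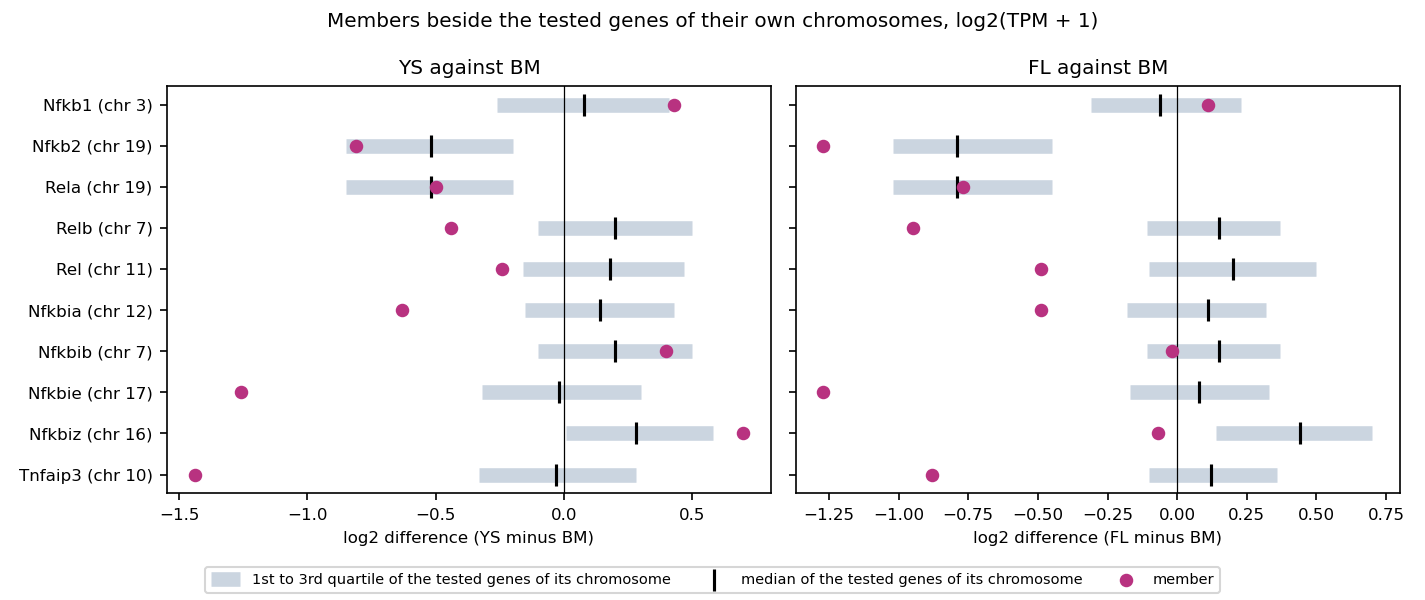
Difference of log2(TPM + 1) against BM lines for each NF-kB gene (points), beside the median (tick) and 1st to 3rd quartile (band) of the tested genes on its chromosome, for YS lines on the left and FL lines on the right (the axes differ in range). Rela lies on the chromosome 19 median in both panels, whereas Nfkbie and Tnfaip3 lie left of their bands.

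The make-up of the family differed between BM lines and the rest. The 5 subunits summed to 230 ± 39.3 TPM for YS, 177 ± 25.4 for FL and 260 ± 4.36 for BM lines (mean ± SD of 3 lines, here and for the shares that follow). Nfkb1 made up 43.7% ± 7.81 of that sum for YS, 44.8% ± 1.65 for FL and 28% ± 1.64 for BM lines. Nfkb2 made up 17.1% ± 1.16, 15.9% ± 0.208 and 26.5% ± 0.808. The groups YS and FL were thus close in both shares, and BM lines lay outside their range. The ratio of Nfkb1 to Nfkb2 was 3.13, 2.64 and 1.95 for YS, 2.96, 2.8 and 2.7 for FL and 1, 1.17 and 1.02 for BM lines, so that the precursors of p50 and p52 were at about equal mRNA levels in BM lines alone. Nfkb2 and Rela lie on chromosome 19, whose tested genes were mostly lower in YS and FL lines than in BM lines. The part of the chromosome in these shares was not tested. The share of Rel was 8.3% ± 3.03, 8.58% ± 0.813 and 8.27% ± 0.301, with overlap among groups.

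The 3 classical IkB genes summed to 243 ± 55.6 TPM for YS, 232 ± 26.1 for FL and 320 ± 24.8 for BM lines. Nfkbie held 6.94% ± 1.66, 7.02% ± 1.04 and 12.7% ± 0.551 of this sum, and Nfkbib 33% ± 8.25, 25.1% ± 3.41 and 18.3% ± 1.93. Per unit of summed subunit mRNA, the IkB genes were at 0.739, 1.01 and 1.55 for YS, 1.26, 1.33 and 1.35 for FL and 1.36, 1.18 and 1.16 for BM lines. The groups overlapped in this ratio, and the YS lines alone spanned more than the FL and BM lines together. These shares describe mRNA, and no test was made on them.

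**Figure D4:**
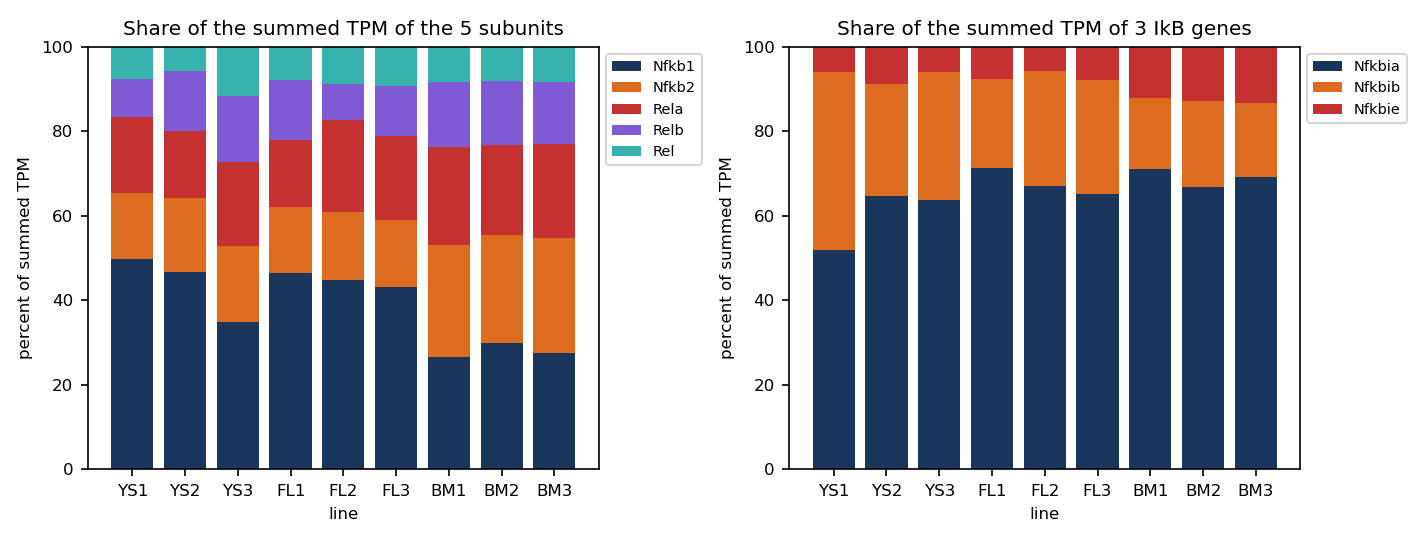
Stacked shares, in percent of summed TPM, of the 5 subunits (left) and of Nfkbia, Nfkbib and Nfkbie (right) in each line. The Nfkb1 band takes 26.6% to 29.8% in BM lines and 34.9% to 49.7% in YS and FL lines, and the Nfkbie band is thickest in BM lines.

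Across the 9 lines, the genes fell into a few patterns, given here as a description since lines of a group share their origin. Nfkb2 followed Rela with Pearson's r of 0.97, Nfkbie with 0.87 and Relb with 0.85, on log2(TPM + 1). Of these, Rela shares chromosome 19 with Nfkb2, and the part of that in their correlation was not tested. Nfkbie followed Nfkbia and Tnfaip3, each with r of 0.88. Nfkbib and Nfkbiz followed each other (r = 0.93), and Nfkb1 followed neither Nfkb2 (r = -0.04) nor any other of the genes above 0.20, and was lowest against Nfkbia (r = -0.54).

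The genes most like each NF-kB gene over the 9 lines are given next. They were picked for the highest r among all tested genes, so high values come in part from the choice. Several had low mean levels, such as Ly86 (0.843 TPM), AW011738 (2.03 TPM) and Map3k15 (2.07 TPM). Rela was matched most closely by Ppp1ca (r = 0.996), Adss (0.989) and Ubxn1 (0.987), of which Ppp1ca and Ubxn1 also lie on chromosome 19. Nfkb1 was nearest to Naa15 (0.977) and Chd1l (0.961), which share its chromosome 3, and to Ly86 (0.948). Nfkb2 was nearest to Mdh1 (0.993), Iqgap1 (0.987) and Slc37a2 (0.985). Relb was nearest to Arhgef6 (0.967), Map3k15 and C3 (both 0.943), and Rel to Tmem259 (0.985), Tuba4a (0.967) and Whrn (0.942). These leading genes are not NF-kB genes of the pathway lists. For the inhibitors, Nfkbia was nearest to A630033H20Rik (0.975), Rbmx (0.973) and Acvr2a (0.971), and Nfkbib to Psma1 (0.965), which lies on the same chromosome 7, Acap1 (0.961) and Pdgfrl (0.960). Nfkbie was nearest to Sun1 (0.989), Trpt1 (0.988) and Cmbl (0.979), Nfkbiz to Rnf34 (0.978), Rpl9 (0.963) and AW011738 (0.961), and Tnfaip3 to Tmem42 (0.981), Cmtm4 and Siglec15 (both 0.961).

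The genes around the NF-kB core were followed through 5 lists holding 97 genes, of which 84 were tested. Between YS and BM lines, 15 of the 84 were called, with 11 higher and 4 lower in YS lines. FL lines differed from BM lines in 19, of which 10 were higher and 9 lower in FL lines. For YS against FL lines the count was 8, with 7 higher and 1 lower in YS lines. The shares of all tested genes called in these comparisons were the 12.8%, 10.3% and 3.79% given above.

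Of 10 tested receptors, Cd40, a TNF-receptor family member that can engage the alternative branch, was higher in both embryonic groups. It was at 14.0, 16.8 and 13.5 TPM for YS, 27.7, 6.26 and 24.0 for FL and 0.37, 2.66 and 0.37 for BM lines. BM line 2 exceeded the other BM lines, and no groups of embryonic and BM lines overlapped. YS lines were higher by 3.05 ± 0.55 (SE, adjusted p = 0.0067, limma) and FL lines by 3.19 ± 0.55 (adjusted p = 0.0055); without BM line 2 these differences were 3.52 and 3.66. Tlr2, a receptor for bacterial lipoproteins, was lower in FL lines than in BM lines by -1.36 ± 0.37 (adjusted p = 0.033, limma). No receptor was called between YS and FL lines by limma. Of the 10, 1 passed at an FDR under 0.1 of any size, beside 12.8% of tested genes. An unadjusted p under 0.05 was reached by 1, beside 3016 of all 11753 tested genes.

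Of 19 adaptors and ubiquitin ligases, 0 were called between YS and BM lines by limma. At an FDR under 0.1 of any size, 11 of them passed, 8 higher and 3 lower in YS lines, beside 37.9% of tested genes. An unadjusted p under 0.05 was reached by 11 of them and by 4842 of all 11753 tested genes. In FL lines, Ticam2, a bridging adaptor for Tlr4, was higher than in BM lines by 1.22 (adjusted p = 0.014, limma), and Traf1, a TRAF protein and known target of NF-kB, was lower by -2.73 (adjusted p = 0.036). Between YS and FL lines, 0 were called and 1 passed at an FDR under 0.1 of any size, beside 12.8% of tested genes. An unadjusted limma p under 0.05 was reached by 7, beside 3016 of all tested genes. Among 11 kinase genes, Ikbkg, which encodes the regulatory subunit NEMO of the IkB kinase, was lower in YS lines than in the others. It was at 11.9, 23.5 and 16.7 TPM for YS, 25.9, 56.8 and 43.8 for FL and 45.5, 42.4 and 44.1 for BM lines. All YS lines lay below the other 6. The difference was -1.34 ± 0.30 (SE, adjusted p = 0.014, limma) from BM lines and -1.21 ± 0.30 (adjusted p = 0.057) from FL lines. No kinase gene was called between FL and BM lines by limma. Of the 11, 3 passed at an FDR under 0.1 of any size, 1 higher and 2 lower in FL lines, beside 27.6% of tested genes. An unadjusted p under 0.05 was reached by 4, beside 3952 of all 11753 tested genes.

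Of 16 other inhibitors and IkB-like proteins tested, 5 were called between FL and BM lines, 3 lower and 2 higher in FL lines. Between YS and BM lines 1 was called, and between YS and FL lines 2. Bcl3, an IkB-like partner of p50 and p52, was at 0.36, 2.63 and 4.96 TPM in FL lines, against 13.8, 16.1 and 17.9 TPM in YS lines and 21.3, 17.5 and 19.3 TPM in BM lines. Tnip3, an A20-binding protein, was at 25.2, 5.86 and 16.7 TPM in FL lines, 61.5, 56.5 and 52.7 TPM in YS lines and 67.4, 70.5 and 69.3 TPM in BM lines. In both genes every FL line lay below every other line. FL lines were lower than BM lines by -2.72 ± 0.45 in Bcl3 (SE, adjusted p = 0.0045, limma) and by -2.25 ± 0.40 in Tnip3 (adjusted p = 0.0061), and YS lines were higher than FL lines by 2.45 (adjusted p = 0.029) and 1.98 (adjusted p = 0.038). Nfkbid, which encodes the nuclear IkB-like protein IkBNS, was lower in FL lines than in BM lines by -1.30 (adjusted p = 0.0012, limma). Nfkbil1, a gene named for its likeness to IkB, was higher than in BM lines by 1.16 in FL lines (adjusted p = 0.0033, limma) and by 1.44 in YS lines (adjusted p = 0.002). The remaining called gene between FL and BM lines, higher in FL lines, was Nkiras2, whose difference of 1.02 was 0.98 without BM line 2 and then under 2-fold.

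Target genes of NF-kB, among them chemokines, cytokines and survival genes, were called in both directions against BM lines. The list held 40 genes, of which 28 were tested. Between YS and BM lines, 12 were called, of which 9 were higher and 3 lower in YS lines. For FL against BM lines the count was 10, with 6 higher and 4 lower in FL lines. Between YS and FL lines, 5 were called, all higher in YS lines. The chemokine gene Ccl5 was at 61.0, 138 and 263 TPM for YS, 174, 16.6 and 62.2 for FL and 1.27, 20.3 and 2.54 for BM lines. BM line 2 was above FL line 2 for this gene, and the other BM lines were below every embryonic line. Ccl5 differed from BM lines by 4.57 ± 1.03 in YS lines (SE, adjusted p = 0.014, limma) and by 3.39 ± 1.03 in FL lines (adjusted p = 0.05), and without BM line 2 by 5.54 and 4.36.

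The anti-apoptotic gene Bcl2a1b was higher than in BM lines by 4.64 in YS lines and 4.68 in FL lines (adjusted p = 0.0044 and 0.0038, limma), and Bcl2a1a was higher in YS lines by 4.22 (adjusted p = 0.024). These are near-identical paralogs among which reads may have been split, so their separate values are uncertain. Cxcl10, a chemokine gene induced by interferon and NF-kB, was higher in YS lines than in BM lines by 3.37 ± 1.02 (SE, adjusted p = 0.04, limma). Ccl4, another chemokine gene, was higher in FL lines than in BM lines by 2.05 (adjusted p = 0.0016), and Ptges, a prostaglandin E synthase, was lower in FL lines by -2.12 (adjusted p = 0.0021). Called between YS and BM lines as well, Ccl4 differed there by 3.07 (adjusted p = 0.00045, limma) and Ptges by -1.86 (adjusted p = 0.0039). Among the 5 genes called between YS and FL lines, the widest differences were in Csf1, which encodes M-CSF (2.51, adjusted p = 0.076, limma), Ptgs2, the inducible cyclooxygenase (2.35, adjusted p = 0.026), Bcl2a1d (1.35) and Ccl3 (1.31, adjusted p = 0.0062). Csf1 and Bcl2a1d were no longer called without BM line 2, which left 3 called target genes in that comparison. Without that line, 12 target genes were called between YS and BM lines, with Saa3 no longer among them (adjusted p = 0.13, limma). Between FL and BM lines 10 were then called, 7 higher and 3 lower in FL lines, with Plau no longer among them (adjusted p = 0.17). For Csf1, the mean RNA-seq level given in the study was also highest in YS lines. By qRT-PCR, the study described this mRNA as not necessarily high there.

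**Figure D5:**
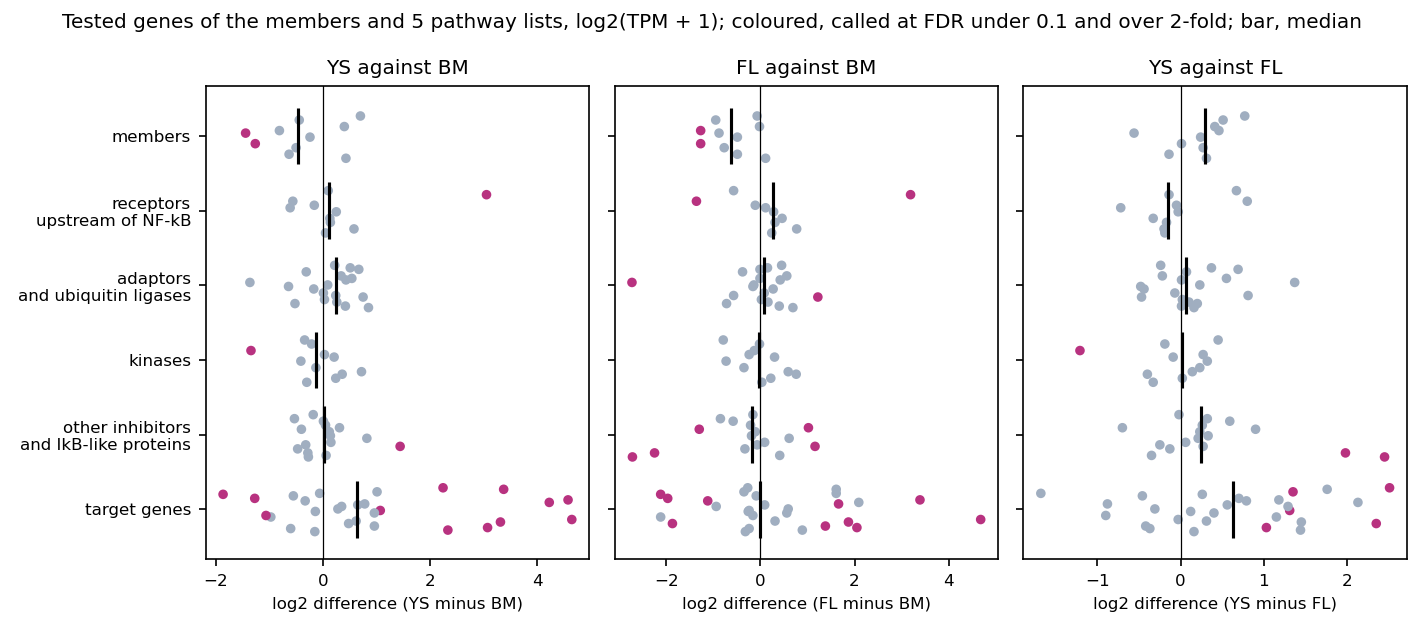
Differences of log2(TPM + 1) between groups (the 3 panels differ in range) for the 10 NF-kB genes and the tested genes of 5 pathway lists, 1 point per gene, coloured where called at FDR under 0.1 and more than 2-fold, with a bar at each list's median. The 10 NF-kB genes have medians of -0.47 and -0.63 against BM lines, and target genes spread widely on both sides of 0.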

How the data were processed

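RNA-seq was analysed for 9 libraries (3 YS, 3 FL and 3 BM lines), grouped by the sample labels. The authors made poly(A)-selected, directional libraries, read as single reads, and deposited TPM in 1 table. The submitters' processing notes name Trim Galore 0.6.6, STAR 2.7.9a and RSEM 1.3.3; the genome build and annotation are not given in the sources used here. The deposited TPM were transformed to log2(TPM + 1). Genes that reached 1 TPM in 3 or more of the 9 libraries entered limma 3.58.1 in R 4.3.3, with all 9 libraries in one model, empirical Bayes with a trend and Benjamini-Hochberg adjustment over all tested genes; the steps were tested on simulated data. Since TPM are not counts, no count test was used. TPM keeps no depth, so no counting interval is given. The NF-kB genes, pathway lists and marker lists were chosen with earlier results of these data known. The rule for names took all 10 NF-kB genes, up to 4 called genes with the largest difference per list and comparison, and the 3 genes most correlated with each NF-kB gene. Chromosomes and promoters came from RefSeq (GRCm38.p6), matched by symbol for 23194 of 24411 genes. Lines share numbers across groups, with no statement that they are pairs. Alternatives changed the scaling (quantile normalization, median-of-ratios), the filter (5 TPM, or none) and the pseudocount (4 or 0.1), dropped the variance trend or the fold threshold, fitted the compared groups alone, added the replicate block, or left out 1 line at a time. Counts at an FDR under 0.1 of any size were recomputed under each alternative after the data had been seen. The ATAC-seq and functional assays of the study were not analysed here.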

Additional observations from a re-analysis of the deposited data

How the results depend on the processing

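Between YS and BM lines, leaving out 1 line at a time gave 1 to 2 called NF-kB genes (Nfkbie was lost without YS line 1), between FL and BM lines 2 to 3, and between YS and FL lines 0. At an FDR under 0.1 of any size these ranges were 4 to 9, 3 to 6 and 0 to 3, and with no fold threshold 7, 5 and 3 NF-kB genes, 36, 35 and 13 pathway genes and 4455, 3247 and 1500 of all genes passed. For YS against FL lines, that any-size count was 1 with no filter and 0 with only the 2 groups fitted, where 1 pathway gene and 81 of all genes were called; 280 of all genes were called with a pseudocount of 4. Leaving out 1 line gave 4 to 10 pathway genes and 191 to 588 of all genes in that comparison. With the replicate number as a block, 2, 2 and 0 NF-kB genes were called, and the any-size count for YS against FL lines was 0. Deviations of same-numbered lines from their group means correlated from -0.118 to 0.0878. With so few lines per group, these values cannot tell whether same-numbered lines shared a batch or preparation. Small, uncalled differences changed sign: Nfkb1 between FL and BM lines (-0.02 to 0.20 over the lines left out), Nfkbib (-0.08 to 0.03) and Nfkbiz (-0.23 to 0.08) in the same comparison, and between YS and FL lines Nfkbia (-0.32 to 0.16) and Nfkbie (-0.23 to 0.30, and -0.00 with median-of-ratios scaling). Relb between FL and BM lines passed 2-fold with quantile (-1.06) or median-of-ratios scaling (-1.04) and without FL line 1 (-1.22). Quantile normalization moved the median of all genes between YS and BM lines from 0.11 to -0.01, and Nfkbib then no longer passed. The causes were not tested. The unknown depth and 3 lines per group limit the precision.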
